A study of Homo sapiens with 9 samples.

Results

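Integrins are the receptors by which cells hold on to the matrix, and the genes described here encode 10 integrin subunits: ITGA2, ITGA3, ITGA5, ITGA6, ITGAV, ITGB1, ITGB3, ITGB5, ITGB6 and ITGB8. They were chosen by gene symbol from the probe set annotation, with earlier results of these data known. Of the 10, 9 were among the 11963 genes with a probe set of their own, and ITGB6 had only shared ones. Together the members were read by 26 of the 22277 probe sets of the array. Where a gene had several, the one brightest on average stood for it. ITGA2, ITGA3, ITGA5 and ITGAV had no further probe set, so none could serve as a check for them. The cells were HK-2, an immortalised line from human kidney proximal tubule epithelium, studied during transition driven by transforming growth factor β1 (TGFβ1), a cytokine that turns epithelial cells towards a mesenchymal, matrix-producing state. The 3 groups were untreated cells (0 h) and cells given TGFβ1 for 24 h or for 48 h, each with 3 arrays. All groups were grown in the same medium, which held EGF, hydrocortisone, triiodothyronine and insulin-transferrin-selenium. Plates of a time point were pooled on each of 3 days, and those days are called runs here, with the replicate number of the array titles as the number of the run. The runs used successive passages. The design text calls the control vehicle and the sample labels call it untreated. The sources used here state no TGFβ1 dose. Since the later time points have no untreated culture here, TGFβ1 and time in culture cannot be told apart. HK-2 is a single line, so replicates are runs of that line and not separate donors.

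An integrin is a dimer of 1 alpha and 1 beta subunit. The alpha subunits α5 and αv pair with beta subunits into receptors for fibronectin and vitronectin, which bind the tripeptide RGD. The subunits α3 and α6 pair into receptors for laminin, the main glycoprotein of the basement membrane, and α2β1 binds collagen. β1 is the common partner of α2, α3, α5 and α6, while αv pairs with β1, β3, β5, β6 or β8. The dimers αvβ6 and αvβ8 release active TGFβ1 from its latent complex, which makes them part of TGFβ signalling as well as of adhesion.

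The arrays gave 1 log2 expression value per probe set, and a gene was tested when 3 or more of the 9 arrays gave it a value of 4 or above, as 4368 genes did. Array medians lay between 2.20 and 2.23, so values near 2 cannot be told from background. Of the proximal tubule list, PAX8 was well above the filter (7.37 ± 0.03 in untreated cells, SD, n = 3), whereas 13 of 15 genes with a probe set of their own, among them LRP2, CUBN, SLC34A1 and AQP1, stayed below 4 on every array. The other exception was DPP4 at 3.84 ± 0.92. PAX8 fell at 24 h and at 48 h (−0.60 and −0.81, adjusted p = 0.0233 and 0.00496, limma). Markers of endothelium (5 of 5), leukocytes (6 of 6) and podocytes (4 of 4) were below 4 on every array. Of 8 fibroblast markers, 7 were below 4 on every array and LUM was at 6.48 ± 0.30, 6.11 ± 0.29 and 6.82 ± 0.15. Of 5 distal nephron markers with a probe set of their own, 4 were below 4 on every array. The other, SCNN1A, was at 6.41 ± 0.42, 3.21 ± 0.62 and 3.54 ± 0.44 in order of time. It passed the filter only through the untreated arrays, and no test is given for it. On the linear scale the summed level per array was 223 to 233, 159 to 167 and 143 to 154 for the proximal tubule list, and 108 to 138, 86.6 to 122 and 132 to 151 for the fibroblast list. These sums mainly follow PAX8 and LUM, the only tested genes of their lists, and do not show a change of either list as a whole. The part of these marker shifts in the integrin results was not tested.

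Of the 10 subunits, 6 were tested: ITGA3, ITGA5, ITGAV, ITGB1, ITGB3 and ITGB5, each of them above the filter on all 9 arrays. In limma without a term for the run, 0 of the 6 passed an adjusted p of 0.05 at 24 h, at 48 h or between 48 h and 24 h. The share of all tested genes that passed was 4.81% at 24 h (2.63% higher and 2.17% lower), 4.44% at 48 h (2.27% higher and 2.17% lower) and 0% between the times. At an unadjusted p under 0.05 the members numbered 3, 5 and 0 of 6 in those comparisons, and the shares of all genes were 16%, 13.9% and 5.01%. Arrays of 1 run shifted together, and 5 of the 6 subunits had their highest mean in run 3, as did 36.2% of all tested genes. In the fit with the run as a replicate block, ITGA5 rose and ITGA3 fell at 24 h, that is 2 of 6 against 11.5% of all tested genes (5.95% higher and 5.52% lower). At 48 h, ITGA5, ITGAV, ITGB1 and ITGB3 rose and ITGA3 fell, 5 of 6 against 10% of all tested genes (5.22% higher and 4.81% lower). The F test over the 3 groups gave adjusted p-values of at least 0.126 for the 6 without the block, and with it ITGA3 (0.00677), ITGAV (0.0359), ITGB3 (0.0396) and ITGA5 (0.0432) passed. The 6 had a median log2 fold change of 0.43 at 24 h and 0.63 at 48 h, beside 0.02 and 0.02 over all tested genes. Arrays of the compared groups did not overlap for 3 of the 6 at 24 h and 3 of the 6 at 48 h. The shares of all tested genes without overlap were 16.4% and 18.1%. Between 48 h and 24 h it was 1 of the 6, and 12.6% of all tested genes. Since the members were chosen with earlier results known, these comparisons with all genes are description and no test of the members together. In these cell pools, a change in the share of cells that carry a transcript and a change in its amount per cell cannot be told apart.

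**Figure D1:**
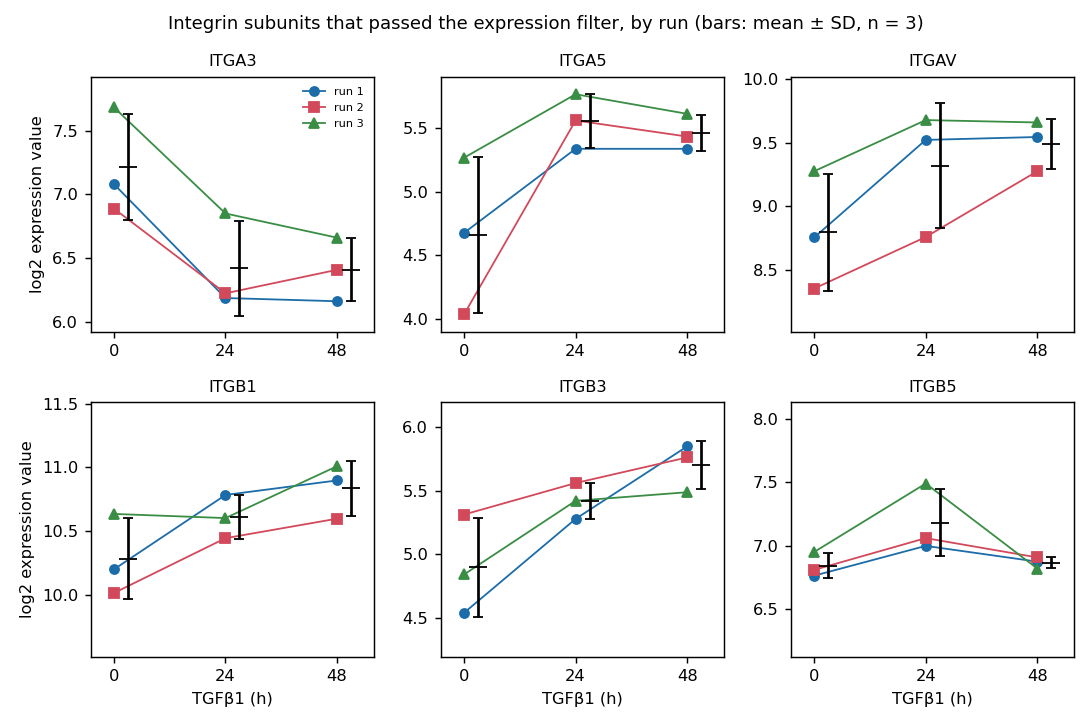
Log2 expression value (vertical axis, each panel spanning 2 log2 units) of the 6 integrin subunits that passed the expression filter, against hours of TGFβ1. Coloured lines join the arrays of 1 run, and black bars are the mean ± SD of 3 arrays. ITGA3 goes down and ITGA5, ITGAV, ITGB1 and ITGB3 go up from 0 h to 48 h in all 3 runs, and the runs start from different levels.

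ITGA5, the alpha subunit of the fibronectin receptor α5β1, had log2 values of 4.68, 4.03 and 5.27 in untreated cells of runs 1, 2 and 3. At 24 h they were 5.34, 5.56 and 5.77, and at 48 h 5.34, 5.43 and 5.61. Every treated array was above every untreated one, and the low untreated value of run 2 gave that run the largest step. The increase over the untreated array of the same run was 0.66, 1.52 and 0.50 at 24 h and 0.66, 1.40 and 0.35 at 48 h. The mean log2 fold change was 0.89 at 24 h (1.86-fold, SE 0.273, 95% interval 0.28 to 1.51) with an adjusted p of 0.122 in limma, and 0.0268 with the replicate block. At 48 h it was 0.80 (1.74-fold, interval 0.19 to 1.41), with an adjusted p of 0.189, and 0.0457 with the block. Between 24 h and 48 h the difference was −0.09 (interval −0.71 to 0.52). The order of means was untreated, 48 h, 24 h, and the treated groups overlapped. The call with the block was lost at 24 h without the array of untreated run 1, 48 h run 1, 24 h run 2 or 24 h run 3 (adjusted p = 0.0552, 0.0539, 0.126 and 0.0727). At 48 h it was lost without any 1 of 7 arrays, the untreated arrays of runs 1 and 2, the 24 h arrays of runs 1 and 3 and all of the 48 h arrays (adjusted p = 0.0561 to 0.184). It was also lost with only the compared groups in the fit (0.0666 at 24 h and 0.0619 at 48 h), and at 48 h with no filter (0.0627) or every probe set tested (0.0515). Without the whole of run 1, 2 or 3 the adjusted p with the block was 0.0896, 0.0994 and 0.0692 at 24 h and 0.182, 0.17 and 0.0696 at 48 h. Without untreated run 2, the lowest array, the log2 fold change without the block was 0.58 at 24 h (adjusted p = 0.189) and 0.49 at 48 h (adjusted p = 0.36), and with the block 0.59 (adjusted p = 0.0375) and 0.49 (adjusted p = 0.0791). The fit without the block called ITGA5 at both times once untreated run 3 was left out (1.20, adjusted p = 0.0221 at 24 h and 1.11, adjusted p = 0.0262 at 48 h).

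ITGA3, the alpha subunit of the laminin receptor α3β1, was lower after TGFβ1. Its values were 7.08, 6.89 and 7.68 in untreated cells, 6.19, 6.22 and 6.85 at 24 h and 6.16, 6.41 and 6.66 at 48 h. Every treated array was below every untreated one. Within runs the difference from untreated was −0.90, −0.67 and −0.83 at 24 h and −0.92, −0.48 and −1.02 at 48 h. The mean log2 fold change was −0.80 at 24 h and −0.81 at 48 h (1.74-fold and 1.75-fold lower, SE 0.254), with an adjusted p of 0.14 in limma at both times. With the block the SE was 0.129 and the adjusted p 0.00561 and 0.00546, the smallest of the 6 subunits at each time. The 95% interval of the block fit was −1.09 to −0.50 at 24 h and −1.11 to −0.51 at 48 h. The 2 treated groups overlapped and differed by −0.01 (interval −0.58 to 0.56). No single array ended the call with the block, and it was lost only without the whole of run 1 (adjusted p = 0.0628 and 0.0895) or run 3 (0.0555 and 0.0634).

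Both α5 and α3 use β1 as their partner, and their transcripts were also read against each other within each array. The log2 difference of ITGA5 minus ITGA3 grew from untreated to 24 h by 1.56, 2.19 and 1.33 in runs 1, 2 and 3, a mean of 1.69 ± 0.44 (SD, n = 3). From untreated to 48 h it grew by 1.58, 1.88 and 1.37, a mean of 1.61 ± 0.26 (SD, n = 3). Among untreated arrays this difference had an SD of 0.255, against 0.616 for ITGA5 and 0.415 for ITGA3 alone. This pair was chosen after its values were seen and carries no test. The growth of the difference follows from the rise of ITGA5 and the fall of ITGA3 already given, and is no separate result.

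ITGB1, the beta subunit shared by α2, α3, α5 and α6, had values of 10.20, 10.01 and 10.63 in untreated cells, 10.78, 10.44 and 10.60 at 24 h and 10.90, 10.60 and 11.01 at 48 h. The untreated array of run 3 lay among the treated values of the other runs, and the groups overlapped. Within runs the difference was 0.58, 0.43 and −0.03 at 24 h and 0.70, 0.58 and 0.38 at 48 h, so that only the later time was higher in every run. The log2 fold change was 0.33 at 24 h (SE 0.191, adjusted p = 0.466, and 0.155 with the block). At 48 h it was 0.55 (1.47-fold, adjusted p = 0.198), and 0.0366 with the block (interval 0.25 to 0.86). The call was lost without any 1 of 6 arrays, namely untreated or 48 h of run 1 or run 2, 24 h of run 2, or 48 h of run 3 (adjusted p = 0.0601 to 0.171). It was also lost without the whole of run 1 (0.22) or run 2 (0.214), after quantile normalization (0.0554) and with no filter (0.0559). Another 4 probe sets annotated to ITGB1 stayed between 0.74 and 2.00, at background, and gave no check.

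ITGAV, the alpha subunit of the vitronectin receptors and of the dimers that activate latent TGFβ1, had values of 8.75, 8.35 and 9.28 in untreated cells. They were 9.52, 8.76 and 9.68 at 24 h and 9.54, 9.28 and 9.66 at 48 h. Run 2 was the lowest at each time and run 3 the highest, and the lowest 48 h array was level with the highest untreated one. Within runs ITGAV was higher by 0.77, 0.41 and 0.40 at 24 h and by 0.79, 0.92 and 0.38 at 48 h. Its log2 fold change was 0.52 at 24 h (SE 0.286, adjusted p = 0.428, and 0.0536 with the block) and 0.70 at 48 h (1.62-fold, adjusted p = 0.297, and 0.019 with the block, interval 0.37 to 1.03). The call at 48 h was lost without untreated or 48 h of run 1 or run 2 (adjusted p = 0.0762 to 0.0988), and without the whole of run 1 (0.146) or run 2 (0.133).

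ITGB3, the beta subunit of αvβ3, had values of 4.54, 5.31 and 4.84 in untreated cells, 5.28, 5.56 and 5.42 at 24 h and 5.85, 5.76 and 5.49 at 48 h on its brightest probe set. The 48 h arrays were all above the untreated ones, while at 24 h run 1 was just below untreated run 2. Within runs the difference was 0.74, 0.25 and 0.58 at 24 h and 1.31, 0.45 and 0.65 at 48 h, and 48 h was above 24 h in each run by 0.57, 0.20 and 0.07. The log2 fold change was 0.52 at 24 h (SE 0.202, adjusted p = 0.243, and 0.0856 with the block) and 0.80 at 48 h (1.74-fold, adjusted p = 0.0582, and 0.019 with the block, interval 0.42 to 1.18). The call with the block was lost without untreated run 1, 48 h run 1 or 48 h run 3 (adjusted p = 0.0837, 0.0776 and 0.0506), and without the whole of run 1 (0.139) or run 3 (0.0903). The fit without the block called it without untreated run 2 (1.01, adjusted p = 0.0166). A second probe set above the filter had means of 4.38 ± 0.22, 4.61 ± 0.31 and 4.90 ± 0.12 in order of time (SD, n = 3). Its change at 48 h was 0.52 (adjusted p = 0.218, and 0.122 with the block, every probe set tested), the same direction without a call.

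ITGB5, the beta subunit of the vitronectin receptor αvβ5, was the tested subunit that passed in neither fit. Its values were 6.76, 6.81 and 6.95 in untreated cells, 7.00, 7.06 and 7.49 at 24 h and 6.87, 6.91 and 6.82 at 48 h. The 24 h arrays lay above all of the others, and untreated and 48 h arrays overlapped. The log2 fold change was 0.34 at 24 h (SE 0.153, adjusted p = 0.316, and 0.136 with the block) and 0.03 at 48 h (interval −0.32 to 0.37), and from 24 h to 48 h it was −0.31 (adjusted p = 0.781, and 0.295 with the block). The sign at 48 h turned to −0.026 after quantile normalization. A second probe set above the filter had means of 5.45 ± 0.09, 5.41 ± 0.26 and 5.45 ± 0.04 (SD, n = 3) and did not show the 24 h step, its change being −0.04 (interval −0.38 to 0.30).

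**Figure D2:**
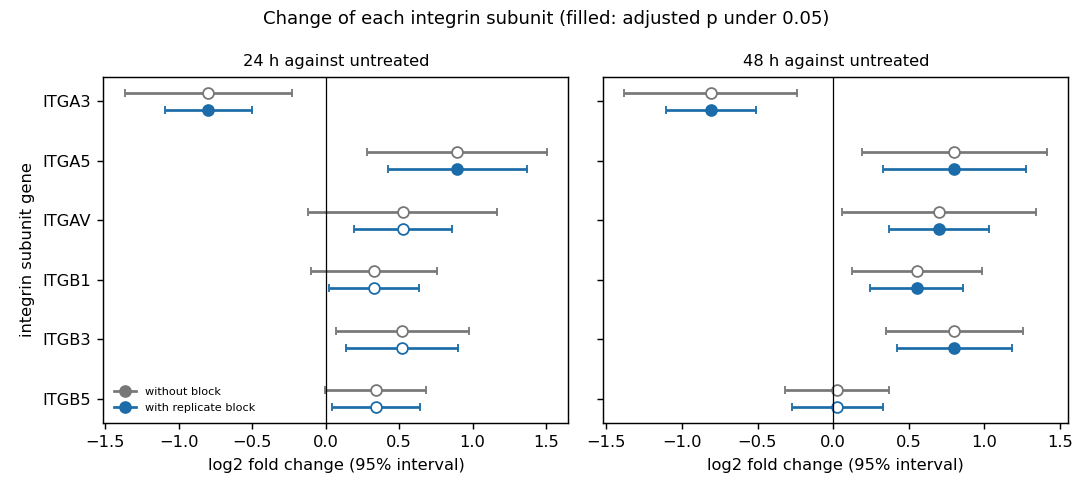
Log2 fold change (horizontal axis) of each tested integrin subunit at 24 h and at 48 h of TGFβ1 against untreated cells, with 95% intervals. Grey is the limma fit without a block and blue the fit with the run as a replicate block, and filled points have an adjusted p under 0.05. The estimates are equal in both fits, and only the block fit has filled points: 2 at 24 h and 5 at 48 h. The intervals are not adjusted for the number of genes tested, so some open points have intervals that do not reach the line of no change.

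The group means at 48 h and 24 h of TGFβ1 were closer to each other than to the untreated mean for all tested subunits but ITGB5. No subunit passed between 24 h and 48 h in limma with or without the block (at an unadjusted p under 0.05, 0 without it and 1 with it, ITGB5). The intervals of the fit without the block leave room for later changes, from −0.47 to 0.82 for ITGAV, −0.20 to 0.65 for ITGB1 and −0.17 to 0.73 for ITGB3. With the block they were narrower, from −0.16 to 0.51 for ITGAV, −0.08 to 0.53 for ITGB1 and −0.10 to 0.66 for ITGB3.

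Promoters are shown for ITGA5, ITGAV and ITGB1, the subunits that rose with the block at 48 h and have an entry in the RefSeq promoter table used here. RefSeq windows of 270 bases, 250 before the start and 20 from it on, were searched in build GRCh38.p14 on both strands for 4 motifs. They were the AP-1 site TGANTCA, the SMAD-binding CAGA box CAGACA, the GC-rich SMAD-binding motif GGCGCC and the E-box CAGGTG that SNAI and ZEB repressors bind. None of the motifs contains another. Each is written 5′ to 3′ on the strand of its gene, matches are in capitals, and where RefSeq lists several starts the most upstream is printed. ITGA5 is on the minus strand at chr12:54419247-54419516, ITGAV on the plus strand at chr2:186589806-186590075 and ITGB1 on the minus strand at chr10:32958211-32958480.
ITGA5: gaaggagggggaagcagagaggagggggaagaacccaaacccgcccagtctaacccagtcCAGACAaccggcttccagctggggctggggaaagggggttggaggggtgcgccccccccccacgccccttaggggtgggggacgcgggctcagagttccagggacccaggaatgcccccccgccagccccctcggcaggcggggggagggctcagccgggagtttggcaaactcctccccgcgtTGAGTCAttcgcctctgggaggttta
ITGAV: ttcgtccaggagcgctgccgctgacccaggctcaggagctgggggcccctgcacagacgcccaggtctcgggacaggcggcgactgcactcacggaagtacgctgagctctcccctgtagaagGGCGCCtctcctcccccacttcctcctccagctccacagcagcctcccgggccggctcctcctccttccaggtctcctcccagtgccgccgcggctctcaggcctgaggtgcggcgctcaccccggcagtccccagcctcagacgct
ITGB1: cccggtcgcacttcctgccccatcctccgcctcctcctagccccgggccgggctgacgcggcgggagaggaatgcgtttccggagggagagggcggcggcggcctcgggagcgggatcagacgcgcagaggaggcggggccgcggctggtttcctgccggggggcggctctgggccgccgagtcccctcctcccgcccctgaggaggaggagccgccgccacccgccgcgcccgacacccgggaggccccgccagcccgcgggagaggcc
The ITGA5 window held 1 CAGA box, which began 190 bases before the start, and 1 AP-1 site, which began 6 bases before it. The ITGAV window held 1 GC-rich motif 127 bases before the start, and the ITGB1 window held none of the 4. Over all 35116 windows of this length, 7.12% held the AP-1 site, 15.1% the CAGA box, 17.4% the GC-rich motif and 18.7% the E-box. Of 13 windows of 8 member genes, 1 held the AP-1 site, 1 the CAGA box, 2 the GC-rich motif and 3 the E-box. G and C made up 68.5%, 70.4% and 78.9% of the printed windows of ITGA5, ITGAV and ITGB1, beside a median of 58.1% over all windows. ITGA3 and ITGB3 were not searched. A match is a run of letters and was not tested for binding.

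The other 4 members were outside the main test, ITGA2, ITGA6 and ITGB8 because they were below the filter and ITGB6 because its probe sets are shared. ITGA2, the alpha subunit of the collagen receptor α2β1, had means of 1.57 ± 0.08 without treatment, 1.70 ± 0.08 at 24 h and 1.67 ± 0.06 at 48 h (SD, n = 3). ITGA6, which pairs with β1 or β4 into laminin receptors, had 3.10 ± 0.45, 2.89 ± 0.65 and 2.78 ± 0.08. Its highest single array was untreated run 3 at 3.60, still below the filter, and its groups overlapped. ITGB8, the beta subunit of αvβ8, had 2.02 ± 0.22, 1.61 ± 0.06 and 1.75 ± 0.16, and the 24 h arrays were all below the untreated ones. A dimmer ITGB8 probe set went from 1.92 ± 0.22 to 1.17 ± 0.15 and 1.06 ± 0.24. With no filter on low values, adjusted p-values of ITGA2 and ITGA6 were at least 0.714 at 24 h and 0.852 at 48 h in limma, and at least 0.635 and 0.61 with the block. In the same fits ITGB8 was at −0.41 at 24 h (adjusted p = 0.273 in limma, and 0.0982 with the block) and −0.26 at 48 h (adjusted p = 0.645, and 0.358 with the block).

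The 2 probe sets that list ITGB6 also list the noncoding RNA LINC02478, so no value is given to ITGB6 itself. One had means of 1.37 ± 0.15, 1.69 ± 0.35 and 1.84 ± 0.26 in order of time, the other 1.49 ± 0.29, 1.72 ± 0.06 and 1.68 ± 0.08 (SD, n = 3). The group means of these probe sets and of ITGA2 and ITGB8 lay below the array medians. The further probe sets of ITGB3 (5), ITGB5 (2) and ITGA6 (1) lay between 1.10 and 3.68 and were not tested. Such values do not show that a transcript is absent.

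**Figure D3:**
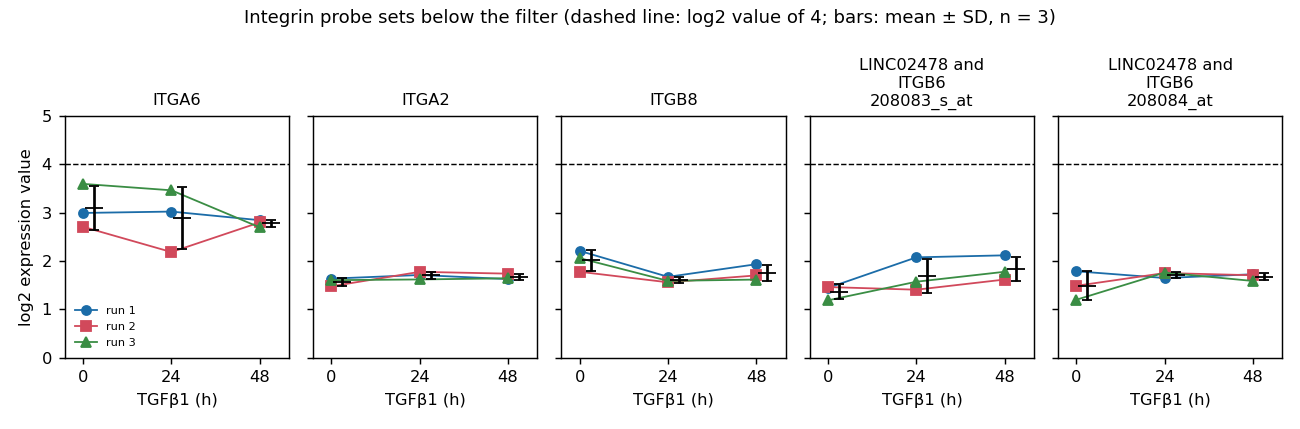
Log2 expression value against hours of TGFβ1 for ITGA6, ITGA2, ITGB8 and the 2 probe sets that list ITGB6 together with LINC02478. Coloured lines join the arrays of 1 run, black bars are the mean ± SD of 3 arrays, and the dashed line is the filter at a log2 value of 4. Every point lies below that line.

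Of the other 16 integrin subunit genes, 14 had a probe set of their own and 13 of these were below the filter, among them the β4 subunit ITGB4 (2.81 ± 0.16 in untreated cells), which pairs with α6 at hemidesmosomes, and the α1 subunit ITGA1 (1.37 ± 0.12). The exception was ITGAE, known as a leukocyte integrin subunit that binds E-cadherin. Its values were 8.27, 8.34 and 7.68 in untreated cells, 8.66, 8.83 and 8.50 at 24 h and 8.41, 8.52 and 8.12 at 48 h. The 24 h arrays were all above the untreated ones. The log2 fold change at 24 h was 0.57 (adjusted p = 0.194 in limma, and 0.0177 with the block), and 0.26 at 48 h (adjusted p = 0.705, and 0.244 with the block). The leukocyte markers PTPRC, CD14, CD3E, CD79A, ITGAM and ITGB2 were all below 4 on every array.

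Among ligands that integrins bind through RGD and related sites, 8 passed the filter, FBN1 only through the treated arrays. Of the other 7, 1 rose at 24 h and at 48 h and 0 fell (2 rose with the block at each time). The shares of all tested genes that rose were 2.63% at 24 h and 2.27% at 48 h (5.95% and 5.22% with the block). THBS1, thrombospondin, went from 5.64 to 7.23 and 7.27 (1.59 and 1.63, SE 0.363, adjusted p = 0.0373 and 0.0344). FBN1, the microfibril protein fibrillin 1, had means of 3.31 ± 0.66, 4.90 ± 0.09 and 5.65 ± 0.18 in order of time (SD, n = 3), with no test given. The median change of the 7 was 0.21 at 24 h and 0.49 at 48 h on the log2 scale. FN1, fibronectin, the ligand of α5β1, was at 11.01 in untreated cells and 11.55 at 48 h (0.53, adjusted p = 0.109 in limma, and 0.0421 with the block). At 24 h FN1 was at 0.27 (adjusted p = 0.469 in limma, and 0.234 with the block). CCN2, the other gene that the block added, was at 1.18 at 24 h (adjusted p = 0.0885, and 0.0166 with the block). At 48 h CCN2 was at 0.60 (adjusted p = 0.513, and 0.182 with the block).

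Of 9 genes listed for latent TGFβ and its binding protein family, 2 were tested, both of which rose at 24 h, as did 2.63% of all tested genes. TGFB1, the cytokine's own gene, went from 5.19 to 6.37 and 6.29 (1.18 at 24 h, adjusted p = 0.0352, and 1.10 at 48 h, adjusted p = 0.0506, with 0.0323 at 48 h in the block fit). LTBP2, named for the latent TGFβ binding protein family, went from 6.59 to 7.72 and 7.60 (1.13 and 1.01, adjusted p = 0.00118 and 0.00204). Whether its product is part of the complex that αv integrins act on was not tested. TGFB2, TGFB3, LTBP1, LTBP3, LTBP4 and LRRC32 were below the filter.

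Collagen and laminin ligands had 3 tested genes each, and their counts were not tested against each other. In limma 4.81% of all tested genes passed at 24 h and 4.44% at 48 h, and 11.5% and 10% with the block. At an unadjusted p under 0.05 the shares were 16% and 13.9%, and 27.7% and 22.9% with the block. Of 3 tested collagen genes, COL4A1 (0.83, adjusted p = 0.0352) and COL6A1 (0.50, adjusted p = 0.0475) rose at 24 h and 0 passed at 48 h in limma (2 at an unadjusted p under 0.05). With the block 3 rose at 24 h and 2 at 48 h, COL4A1 (0.76, adjusted p = 0.00191) and COL4A2 (0.59, adjusted p = 0.00804), which encode the collagen IV of basement membranes. Of 3 tested laminin chains, LAMB1, LAMB3 and LAMC1, 0 passed in limma with or without the block. At an unadjusted p under 0.05 there were 0 at either time without the block, and 1 at 24 h and 2 at 48 h with it. Given the shares of all genes that passed, 0 of 3 does not set the laminin chains apart.

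Of the adaptors and kinases on the inner side of integrin adhesions, 15 passed the filter, TNS1 and PXN only through the treated arrays. Of the other 13, 1 rose at 24 h and 0 at 48 h in limma (7 and 5 at an unadjusted p under 0.05), and 0 fell. With the block 5 rose at each time, among them ZYX, NEDD9 and ACTN1 at both. The shares of all tested genes that rose were 2.63% and 2.27% in limma, and 5.95% and 5.22% with the block. At an unadjusted p under 0.05 the shares in either direction were 16% and 13.9% in limma. The median of the 13 was 0.37 at 24 h and 0.33 at 48 h. RSU1, a member of the complex of ILK, PINCH and parvin, rose by 0.76 at 24 h (adjusted p = 0.00958). At 48 h RSU1 was at 0.49 (adjusted p = 0.0678, and 0.0223 with the block). TNS1, tensin 1, which links beta tails to actin, had means of 3.20 ± 0.53, 5.92 ± 0.56 and 5.72 ± 0.37 in order of time (SD, n = 3). The scaffold gene PXN, paxillin, had 3.74 ± 0.30, 4.50 ± 0.21 and 4.38 ± 0.10. No test is given for TNS1 and PXN.

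Genes listed as integrin activators, or as integrin inhibitors and other tail binders, did not pass. Of 5 tested genes listed as activators, FERMT1, FERMT2, RAP1A, RAP1B and CIB1, 0 passed in limma at either time with or without the block. At an unadjusted p under 0.05 the count was 0 at 24 h and 0 at 48 h without the block and 1 and 1 with it. FERMT2, a kindlin that activates integrins together with talin, was at 0.45 at 24 h (adjusted p = 0.398). Of 6 tested inhibitors and tail binders, 0 passed in either fit, with 0 at 24 h and 0 at 48 h at an unadjusted p under 0.05 without the block and 0 and 0 with it. Their medians were 0.00 and 0.02 for activators and 0.04 and 0.08 for tail binders, at 24 h and 48 h. In limma 4.81% of all tested genes passed at 24 h and 4.44% at 48 h, and 11.5% and 10% with the block. At such shares 0 of 5 and 0 of 6 do not set these lists apart. At an unadjusted p under 0.05 the shares were 16% and 13.9%, and 27.7% and 22.9% with the block.

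Among genes of membrane proteins that sit beside integrins, every call was lower. Of 13 tested genes, 1 fell at 24 h and 3 at 48 h, and 0 rose at either time. The shares of all tested genes were 2.17% lower at each time, and 2.63% and 2.27% higher. CD9, a tetraspanin that associates with β1 integrins, went from 7.42 to 4.45 and 4.09 (−2.97 and −3.33, adjusted p = 8.02e-05 and 5.42e-05). TSPAN4, another tetraspanin, fell at 48 h (−0.85, adjusted p = 0.0271), as did SDC4 (−0.85, adjusted p = 0.0336), a heparan sulphate proteoglycan that acts with α5β1 in adhesion to fibronectin. The tetraspanin CD151, which binds α3β1 and α6 integrins, was at 0.50 at 24 h and 0.40 at 48 h (adjusted p = 0.238 and 0.416). The list's median was −0.09 at 24 h and −0.15 at 48 h. These lists share all of their arrays, untreated and treated, with the subunits, so directions are not independent of them.

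**Figure D4:**
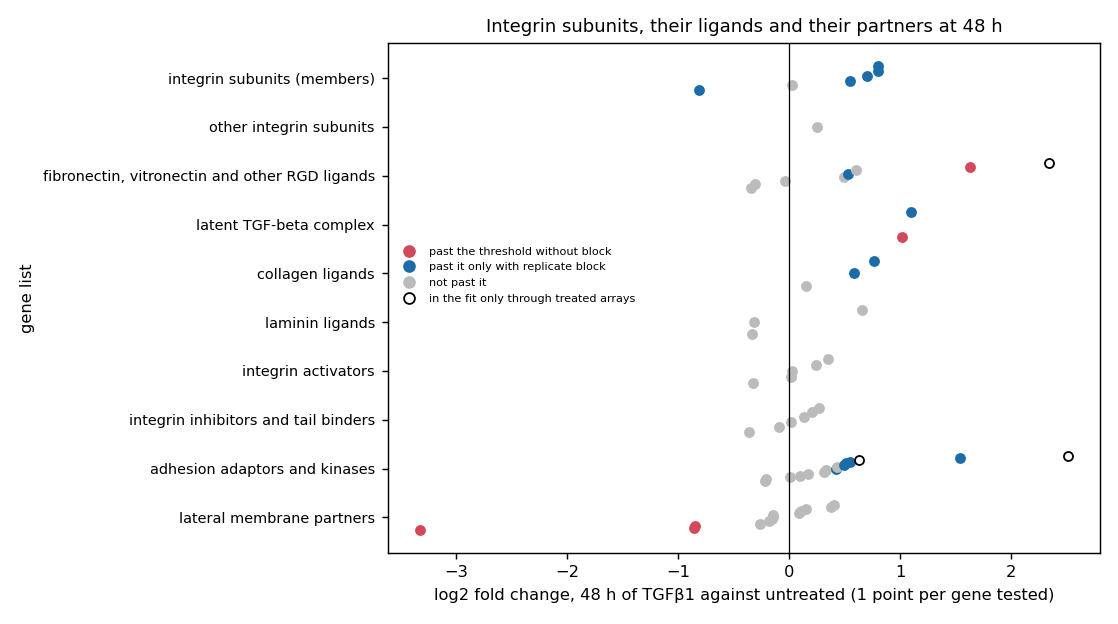
Log2 fold change at 48 h of TGFβ1 against untreated cells (horizontal axis), 1 point for each tested gene of a list. Red points pass an adjusted p of 0.05 in limma without a block, blue points pass only with the replicate block, grey points pass in neither, and open points (FBN1, TNS1 and PXN) passed the filter only through treated arrays and are given no test. The integrin subunits have 5 blue points and no red one, and CD9 is the leftmost point of the membrane partners at −3.33.

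The genes whose profile was nearest to each called subunit were found by the root mean square distance between log2 profiles over the 9 arrays, each centred on its own mean. For ITGA3 they were CAT at a distance of 0.143, CDKN1A at 0.20 and CEBPB at 0.202, beside a median distance of 0.534 over all tested genes. For ITGA5 they were SMURF1 (0.139), UBQLN2 (0.173) and IRS1 (0.184), with a median over all genes of 0.555. For ITGAV the nearest were EPB41L2 (0.0939), STK17A (0.147) and UBXN7 (0.193), and for ITGB1 they were TES (0.076), CALU (0.0922) and TJP1 (0.101). For ITGB3 they were NRBP1 (0.157), UBE2E3 (0.197) and CLPB (0.201). TES, a LIM domain protein of focal adhesions, was the only one of these 15 that also stood in a list used here, and its change was 0.34 at 24 h and 0.55 at 48 h (adjusted p = 0.348 and 0.11, and 0.0999 and 0.0207 with the block). The distance includes shifts between runs as well as the response to treatment.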

How the data were processed

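RNA of HK-2 cells from 3 groups and 3 runs was hybridised to 9 1-colour Affymetrix arrays. The authors deposited 1 log2 value per probe set, computed by GCRMA (a background correction and normalization for such arrays) according to the submitters' processing notes, with no version stated there. Those values were used unchanged. Of 22277 probe sets, 19070 had 1 gene symbol, 1043 had several and 2164 had none, and 62 were controls. Symbols were updated through RefSeq gene IDs for 19058 probe sets. For each gene the probe set with the highest mean was kept, and 4368 of 11963 genes with a value of at least 4 on at least 3 arrays were tested. List genes that passed this filter only through the untreated or only through the treated arrays are given with their means and no test.

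Groups were compared in 1 fit of all arrays with limma 3.58.1 in R 4.3.3, two-sided, with Benjamini-Hochberg adjustment over all tested genes and a threshold of 0.05. The same code was tested on simulated data. The replicate numbers pair the samples, since the labels say that the experiment was done on different days; deviations from group means had correlations of 0.378 to 0.662 for arrays that share a number and of −0.526 to 0.185 for the others, and 9 of 9 arrays correlated best with their own number. Values with that number as a block are therefore given beside the others. No separate donors exist, so p-values without the block measure the spread between runs of 1 line. Those with the block measure how far the differences between groups vary from run to run of that line. Precision is limited by how few arrays there are.

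The members and gene lists were chosen with earlier results of these data known. Genes named were all members, list genes past the threshold without the block, other integrin subunits above the filter and the 3 nearest profiles of each called member. Other list genes, such as FN1, CCN2, FERMT2 and CD151, were named after their values were seen. Alternatives were the filter, the normalization, the probe set, the variance model, the arrays in the fit, the block and leaving out arrays or runs; their combinations with the block were chosen after seeing the data.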

Additional observations from a re-analysis of the deposited data

How the results depend on the processing

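Without the block, 0 subunits passed an adjusted p of 0.05 in limma; with the replicate block 2 passed at 24 h and 5 at 48 h, while calls over all genes moved from 210 to 501 and from 194 to 438. With only the compared groups in the fit, 124 genes passed at 24 h. Leaving out an array or a run gave 0 to 1 subunits at 24 h and 0 to 1 at 48 h, and 34 to 213 and 33 to 206 genes. With the block these ranges were 0 to 3 and 0 to 5 subunits and 218 to 554 and 190 to 486 genes. With the block, the subunits numbered 3 at 48 h with no filter, 4 at 24 h with a trended, robust variance model and 1 at 24 h with only the compared groups (306 genes). Between 48 h and 24 h, 1 gene passed with the block and a filter at 5, and 10 with the block and the trended model. The sign of ITGB5 at 48 h turned to −0.026 after quantile normalization in both fits. Without an array or run, ITGB5 at 48 h lay between −0.016 and 0.10, and with the block between −0.043 and 0.15. Between 48 h and 24 h the same omissions gave −0.14 to 0.21 for ITGA3, −0.20 to 0.012 for ITGA5 and −0.11 to 0.35 for ITGAV. The cause was not tested. The gene lists were computed in the 2 fits only. Low signal limits ITGA2, ITGA6, ITGB6 and ITGB8.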
